A study of Mus musculus with 8 samples.

Results

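The long-read RNA of the HL1 chromatin fraction was described by the protein-coding genes that hosted it. A host gene was a GENCODE M21 protein-coding gene, on the mm10 mouse assembly, with summed abundance above 0 in both long-read libraries. The sum took every mouse transcript of the deposited table that lay on the same strand with at least 0.9 of its span inside the gene. By this rule 11690 of 21951 protein-coding genes were host genes, 53.3% of all. A further 821 genes were above 0 in replicate 1 only, 856 in replicate 2 only, and 8584 were at 0 in both. Genes seen in a single library were mostly low, with a median of 0.702 TPM, and the highest of them was Ran, which encodes the GTPase of nuclear transport, at 73.8 TPM in replicate 1.

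HL1 is a beating mouse atrial cardiomyocyte line that comes from the AT-1 tumor lineage, here a single line grown in medium with norepinephrine and given no other treatment. Nuclei were extracted with urea and detergent, the pellet was kept as chromatin and the supernatant as nucleoplasm, and ERCC standard RNA was added to each. Chromatin RNA of 2 libraries was depleted of ribosomal RNA, given a poly(A) tail in vitro and sequenced on Oxford Nanopore as cDNA, with a minimum read quality of 7 in replicate 1 and 9 in replicate 2. The short-read libraries, 3 of chromatin and 3 of nucleoplasm from independent cultures, were used as a second readout of the same genes. Ribosomal RNA was depleted with Ribo-zero Gold for the short-read libraries and with RiboMinus for the long-read libraries, so the kinds of read also differ in this step. The study speaks of biological replicates for its sequencing in general. Both long-read libraries are of 1 condition, so their values are given side by side with no test. TPM, the abundance unit of the long-read table, is scaled to transcript length and to the same total in each library, so it holds no read depth, and no counting error can be given for a single value.

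RNA that stays with chromatin includes transcripts still attached to a transcribing polymerase, in which introns are present until they are spliced. It also includes stable RNAs that act in the nucleus, such as those of the nucleolus. A long gene takes longer to transcribe than a short gene, and its introns make up most of its length, whereas a mature messenger RNA leaves the chromatin and holds exons alone. The genome also holds many intronless copies of highly expressed messenger RNAs, the processed pseudogenes, which often lie within introns of unrelated genes.

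The sequences that decided several of the leading host genes were of such stable or copied RNA. Tex14, a germ cell gene needed for intercellular bridges, owed its rank to 4 copies of the U3 small nucleolar RNA (Rnu3b1 to Rnu3b4) inside its span. U3 guides cleavage of the ribosomal RNA precursor. The 4 copies were identical over 215 bases in GENCODE M21. The copy Rnu3b2 at chr11:87471368-87471582 on the plus strand is shown with the CTGA of its box D, 5 bases from the 3′ end, in capitals.
Rnu3b2: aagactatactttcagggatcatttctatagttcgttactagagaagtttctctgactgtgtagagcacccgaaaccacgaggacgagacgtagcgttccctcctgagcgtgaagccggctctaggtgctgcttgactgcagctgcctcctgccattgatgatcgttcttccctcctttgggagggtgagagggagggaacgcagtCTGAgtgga

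Gm10073 and Rps12-ps3 are annotated as protein-coding genes and copy ribosomal protein messages without introns. The first 60 coding bases of each are shown beside those of the closest other protein-coding transcript, from GENCODE M21, because a read from either of the pair differs at few bases. Gm10073 matched Rplp1, a protein of the ribosomal stalk, at 98.79% over 496 bases. In the bases shown it differed by C9T and A53G (the base of Rplp1, the position from the 5′ end, the base of Gm10073), which are in capitals. Rps12-ps3 matched Rps12, of the small subunit, at 100% over 494 bases. The windows lie at chr8:106573291-106573350 on the minus strand for Gm10073 and at chr19:59322371-59322430 on the plus strand for Rps12-ps3.
Gm10073: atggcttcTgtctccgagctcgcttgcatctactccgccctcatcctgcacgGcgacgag
Rplp1: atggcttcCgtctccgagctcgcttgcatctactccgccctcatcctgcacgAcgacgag
Rps12-ps3: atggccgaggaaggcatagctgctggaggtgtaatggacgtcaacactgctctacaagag
Rps12: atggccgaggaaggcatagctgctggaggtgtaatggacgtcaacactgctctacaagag

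Zc3h7a, which encodes a zinc finger protein that binds microRNA precursors, was carried by an assembled transcript of 412 bp at chr16:11143904-11144315 on the minus strand. That transcript covers the annotated microRNA Gm23935, which lies on the opposite strand at chr16:11144125-11144181. The origin of the RNA of that transcript was not tested, and the annotation alone does not show that it is a microRNA. No genome sequence of this build was used here, and the microRNA is shown because it is the stretch under that transcript that the annotation holds.
Gm23935: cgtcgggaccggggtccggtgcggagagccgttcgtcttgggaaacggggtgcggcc

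The host genes took 36.5% of all TPM in replicate 1 and 33.4% in replicate 2, through 52888 transcripts. Of these, 33760 were assembled by StringTie and 19128 were reference transcripts with a RefSeq accession. Assembled transcripts held 48.1% of host-gene TPM in replicate 1 and 51.1% in replicate 2, against 75.3% and 78.6% of the TPM of all mouse transcripts. The median host gene had a mean of 14.5 TPM over both libraries (quartiles 5.75 and 33.1) in 3 transcripts. A mean of at least 10 TPM was reached by 7207 host genes and of at least 100 TPM by 561. The levels were spread over many genes, as the first 25 host genes held 7.82% and the first 100 held 16.0% of the summed TPM. Because genes overlap, 569 host genes shared transcripts with another gene.

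The split between assembled and reference transcripts was uneven from gene to gene. The median host gene had 32.3% of its TPM in assembled transcripts (quartiles 0 and 75.1%), or 72.01% when only transcripts wholly inside the gene were taken. In all, 4184 genes (35.8%) had none and 748 (6.40%) had nothing else. Among host genes of at least 50 TPM, 277 were at 0% and 121 at 100%. Of those at 100%, the highest were Gm10073, Myo3a, Rps12-ps3, Rab39 (546 and 503 TPM in replicates 1 and 2) and Rps23 (518 and 452 TPM). Rps18 (514 and 426 TPM) and the chaperone gene Calr (121 and 70.6 TPM) also had nothing but assembled transcripts, all of which touched an exon of the gene. Those of Asic2 (103 and 81.6 TPM), a neuronal acid-sensing channel gene of 1088289 bp, lay wholly in introns, and a single transcript of 979 bp held 92.2% of its TPM.

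**Figure D1:**
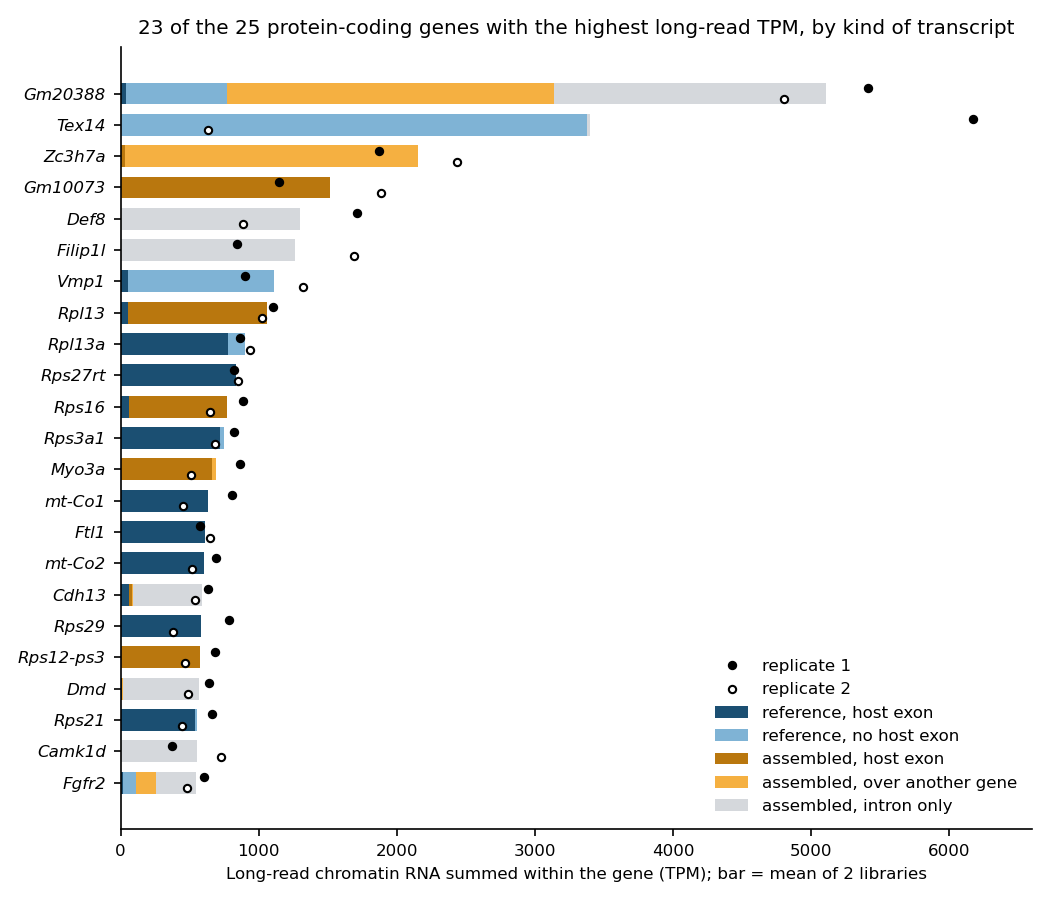
Of the 25 host genes with the highest mean TPM over both long-read libraries, 23 are shown, as horizontal bars of mean TPM (axis from 0) divided by the kind of transcript, reference or assembled and with or without contact to an exon of the host. Filled points are replicate 1 and open points replicate 2. Tex14 and Vmp1 consist almost wholly of reference transcripts without host exons, Filip1l, Def8 and Camk1d of assembled transcripts in introns, and the ribosomal protein genes of transcripts that touch their own exons.

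In Tex14 nearly all TPM was of nested RNA. Its sum was 6169 TPM in replicate 1 and 633 TPM in replicate 2, of which the U3 copies shown above held 6137 and 611 TPM. The 4 copies had 1520 to 1541 TPM each in replicate 1 and 150 to 155 TPM each in replicate 2. Their sequences are identical, so reads cannot be assigned to a single copy. These values are therefore not separate readings of each copy. Without U3, Tex14 had 32.3 and 22.5 TPM, and its transcripts with contact to an exon had 0.059 and 0 TPM. The other 66 small nucleolar RNA transcripts without contact to host exons summed to 960 TPM in replicate 1 and 478 TPM in replicate 2.

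The highest sum belonged to Gm20388, a readthrough gene model of 4434882 bp on chromosome 8 that spans many other genes. It had 5411 and 4804 TPM in 258 transcripts, the most of any host gene, and 66.4% of its TPM was shared with other protein-coding genes. Its transcripts with contact to one of its own exons had 39.2 and 41.1 TPM. The leading pieces belonged to Def8, to Rpl13, and to the pseudogene Rps12-ps9 (498 and 351 TPM).

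Def8, a regulator of lysosome positioning, and Filip1l were each carried by an assembled transcript inside an intron. The Def8 transcript at chr8:123425803-123434600 on the plus strand had 1588 and 779 TPM of the gene's 1712 and 888 TPM. The Filip1l transcript at chr16:57391103-57405110 on the plus strand had 832 and 1661 TPM of 842 and 1690 TPM. Replicate 1 was the higher library for Def8 and replicate 2 for Filip1l. Camk1d, a calmodulin-dependent kinase gene of 421059 bp, had 375 and 728 TPM, and a 337-bp intronic transcript at chr2:5379040-5379376 on the minus strand held 92.8% of it. In Zc3h7a the 412-bp transcript described above had 1837 and 2410 TPM of 1870 and 2439 TPM. In Myo3a, an unconventional myosin gene, a transcript of 36578 bp that touched an exon had 840 and 484 TPM.

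Ribosomal protein and mitochondrial messages made up most of the other leading host genes. Gm10073 had 1146 and 1888 TPM, Rpl13 had 1102 and 1022 TPM, Rpl13a had 866 and 936 TPM, and Rps27rt had 823 and 847 TPM. Rps16, Rps3a1, Rps29, Rps12-ps3 and Rps21 had 378 to 890 TPM in either library. All but Rpl13, Rps16 and the copies Gm10073 and Rps12-ps3 were read mainly through reference transcripts. Ftl1, the ferritin light chain gene, had 578 and 651 TPM. The mitochondrial genes mt-Co1 (809 and 452 TPM) and mt-Co2 (694 and 516 TPM) encode cytochrome oxidase subunits. Of 13 mitochondrial protein-coding genes, 10 were host genes and summed to 2761 and 2099 TPM, and 7 of the 10 were lower in replicate 2.

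Cdh13, Dmd and Fgfr2 reached the first 25 in another way, by many small intronic transcripts. Dmd, the dystrophin gene of 2257272 bp, had 640 and 491 TPM in 200 transcripts, of which 197 were assembled and the largest held 1.36%. Cdh13, which encodes the membrane-anchored T-cadherin, had 635 and 538 TPM in 148 transcripts. Its reference transcript of 1041319 bp was the largest, with 10.1% of the TPM. Fgfr2, a fibroblast growth factor receptor gene whose annotated span is 2960900 bp, had 601 and 485 TPM in 78 transcripts, and 38.5% of it was shared with other protein-coding genes.

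Transcripts were sorted by whether they touched an exon of their host gene, a division made after the values had been seen. Reference transcripts with such contact held 47.8% of host-gene TPM in replicate 1 and 46.3% in replicate 2. Assembled transcripts with contact held 19.6% and 18.4%. Assembled transcripts that lay in introns and did not largely overlap the exons of another annotated gene numbered 26396. They had a median span of 1258 bp and held 24.9% and 28.5%. Some of them lay within the span of another gene. Assembled transcripts over another gene held 3.61% and 4.13%, and reference transcripts without contact held 4.08% and 2.56%. Transcripts that touch an exon of their host thus held the larger share in both libraries.

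Nested transcripts were sorted by the annotated gene beneath them. Those over processed pseudogenes summed to 12140 and 11688 TPM in 270 transcripts, nearly the same in both libraries. Those over small nucleolar RNAs summed to 7096 and 1089 TPM, those over another protein-coding gene to 3576 and 3431 TPM, and those over annotated microRNAs to 3030 and 3653 TPM. Of the microRNA sum, the transcript in Zc3h7a alone held 1837 and 2410 TPM. Among the types above 1000 TPM, the small nucleolar RNAs differed most between the libraries.

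The most abundant transcript of a host gene touched an exon of that gene in 9452 of 11690 cases. Among the 561 host genes of at least 100 TPM it did so in 389, and in 40 of them it lay over a pseudogene, which was processed in 39 and unprocessed in 1. Of the first 100 host genes 67 had a leading transcript with exon contact. No transcript touched an exon in 287 host genes, and 846 had under 10 percent of their TPM in such transcripts, 134 of them with at least 100 TPM. When host genes were ranked by exon-touching transcripts alone, 15 of the first 25 stayed among the first 25.

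The share of host genes rose with gene span up to 300 kb and was lower beyond it, and longer host genes carried more assembled RNA. Of 7787 genes of up to 10 kb, 29.7% were host genes, with a median of 10.2 TPM and a median assembled share of 0%. Of 1925 genes over 100 and up to 300 kb, 73.7% were host genes, with a median of 27.3 TPM and a median assembled share of 75.7%. Of 230 genes over 500 kb, 63.9% were host genes, with a median of 67.2 TPM, 12 transcripts and an assembled share of 95.1%. The share of TPM in assembled transcripts within introns was 0.869% in the shortest class, 28.2% between 30 and 100 kb, and 68.1% in the longest class. Both libraries gave the same order, with median assembled shares in the longest class of 95.4% in replicate 1 and 96.5% in replicate 2. Length enters these sums directly, because a longer span can hold more transcripts, so the trend is a description.

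**Figure D2:**
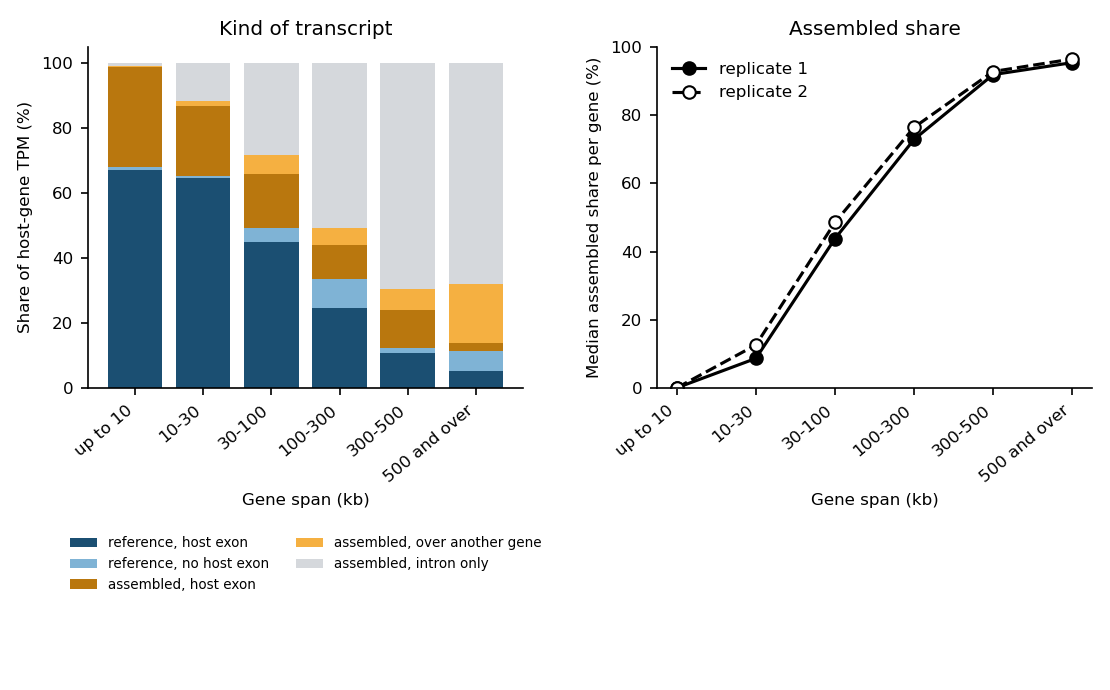
Host genes by gene span in kb. Left, stacked bars (0 to 100%) of the share of host-gene TPM, both libraries averaged, in each kind of transcript. Right, the median share of a gene's TPM in assembled transcripts (%), for replicate 1 (filled points) and replicate 2 (open points). The share of intronic assembled transcripts goes from 0.869% in genes of up to 10 kb to 68.1% in genes over 500 kb, and the points of both libraries lie close together in every class.

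Among the 147 very long host genes, several encode proteins of the heart or of cell contacts. After Gm20388, Dmd, Cdh13 and Fgfr2 came Nkain2 with 579 and 440 TPM, then Ctnna3, the alpha-T-catenin of the intercalated disc, with 526 and 390 TPM. Their assembled shares were 99.4% and 99.3%. Lpp, a focal adhesion gene, had 471 and 364 TPM, and Erbb4, the neuregulin receptor gene, had 330 and 346 TPM. The 147 genes summed to 22430 TPM in replicate 1 and 21291 TPM in replicate 2.

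For the 40 host genes of at least 100 TPM whose leading transcript lay over a pseudogene, the pseudogene was matched to protein-coding transcripts. All 40 had a match, 25 of them to a ribosomal protein gene, with a median identity of 99.1% (92.7 to 100%). The transcript over the pseudogene held a median of 90.5% of the host's TPM. It was above the TPM of the matched parent gene, taken on the parent's own strand, in both libraries in 25 cases and below it in both in 10. With transcripts that lie only partly in the parent gene added to the parent, it was above in 23. Reads from parent and copy are almost alike at these identities, so how the TPM divides between them is uncertain, and the division was not tested.

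The highest of these was Vmp1, which encodes a membrane protein of autophagy. A reference transcript at chr11:86630396-86631072 on the minus strand covers the Rpl13a pseudogene Gm11478 (98% identity over 600 bases) and had 841 and 1278 TPM of the host's 904 and 1325 TPM. Rpl13a itself had 866 and 936 TPM on its own strand, so there copy and parent were of one size. Rab39, a vesicle trafficking GTPase gene, consisted of a transcript over Rps6-ps3 with 546 and 503 TPM, whereas Rps6 had 140 and 10.9 TPM, and 8.92 and 101 TPM more in transcripts partly inside it. In Sumf1, whose enzyme activates sulfatases, the transcript over Rpl36-ps12 had 462 and 446 TPM, whereas Rpl36 was at 0 in replicate 1 and 15.4 TPM in replicate 2, with 33.7 and 49.3 TPM more in transcripts partly inside it. In Cfap77 the transcript over the Gapdh copy Gm13394 (99.9% over 1000 bases) had 313 and 277 TPM, whereas Gapdh had 22.2 and 13.8 TPM. All these parent values are of the parent's own strand. There the copies stood above the parents in both libraries, Rpl13a in replicate 1 being the exception. On the opposite strand Rpl13a had a further 282 and 569 TPM, and Rps6 254 and 242 TPM. Gm10073, at 1146 and 1888 TPM, stood above Rplp1, at 279 and 550 TPM on its own strand but 1505 and 2220 TPM on the other. The copy Rps12-ps3, at 683 and 465 TPM, stood above Rps12, at 286 and 170 TPM. Rps27rt, at 823 and 847 TPM, matched Rps27 at 100% over 341 bases and stood above it, at 164 and 155 TPM.

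**Figure D3:**
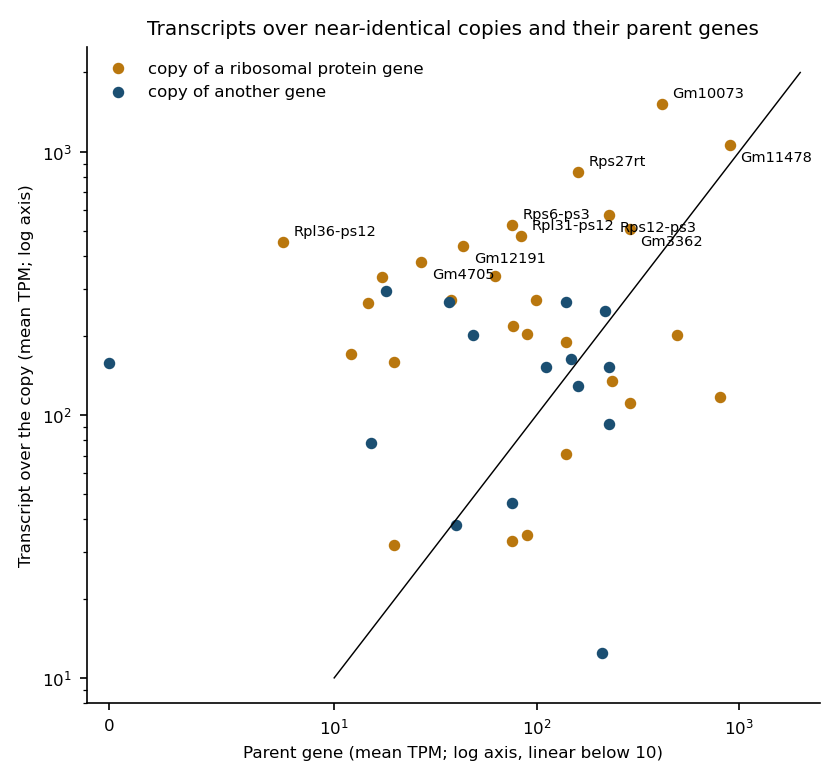
Transcripts over near-identical copies (y axis, mean TPM of both libraries, log scale) and the parent gene of the copy (x axis, mean TPM, log scale above 10 and linear below). Points are the 40 pseudogenes in host genes of at least 100 TPM and the annotated copies Gm10073, Rps27rt and Rps12-ps3, colored by whether the parent is a ribosomal protein gene, and the line marks equal values. Most points lie above the line, among them Rps6-ps3 at 546 and 503 TPM against 140 and 10.9 TPM for Rps6. Partly contained and opposite-strand transcripts of the parents are not plotted.

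The libraries ranked the host genes alike but differed for many single genes. Across the 11690 host genes Pearson's r of log10 TPM was 0.852 and Spearman's rho 0.896, over genes of the same 2 libraries and with no test. The median log2 ratio of replicate 2 to replicate 1 was −0.11 with an SD of 1.18 over genes, and 74.5% of host genes were within 2 fold. Among the 7207 host genes of at least 10 TPM, 86.3% were within 2 fold and the SD was 0.74. When both strands of each of those genes were added, 89.5% were within 2 fold and the SD was 0.65.

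The assembled share of a gene was mostly the same in both libraries, with a median difference of 2.01 percentage points and a Pearson's r of 0.812. It differed by over 50 points in 796 host genes. Tnnt2, the cardiac troponin T gene, was one of them, with 99.3% assembled in replicate 1 and 6.70% in replicate 2, at 564 and 316 TPM. For such genes the split between reference and assembled transcripts was not the same in both libraries.

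The largest differences between the libraries, among host genes of at least 50 TPM, had 1 to 12 transcripts behind them. Rps6 (140 and 10.9 TPM), the fibrillar collagen gene Col5a2 (155 and 12.2 TPM), Tex14, Snx5 (317 and 42.5 TPM) and Sh3bgr (88.9 and 14.2 TPM) were the most reduced in replicate 2. Transcripts that lay only partly in Rps6 had a further 8.92 and 101 TPM, so its low sum in replicate 2 depends on the rule of containment. In Snx5, a sorting nexin gene, a transcript over the small nucleolar RNA Snord17 had 260 TPM in replicate 1 and 11.5 TPM in replicate 2. Setd1b (8.75 and 102 TPM), Rpl28 (33.4 and 249 TPM), Rfx3 (17.3 and 119 TPM), Cox8a (87.1 and 533 TPM) and Sdhd (20.3 and 116 TPM) were the most raised. For several of these the opposite strand moved the other way. Cox8a, a cytochrome oxidase subunit gene, had 943 and 110 TPM on the opposite strand, and both strands together gave 1030 and 643 TPM. Sdhd, of complex II, had 206 and 32.4 TPM on the opposite strand and 227 and 149 TPM on both together. Both strands of Setd1b gave 275 and 149 TPM and those of Rpl28 gave 368 and 310 TPM. Added over strands, Cox8a, Sdhd, Setd1b and Rpl28 were thus higher in replicate 1, the reverse of the order on their own strand.

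**Figure D4:**
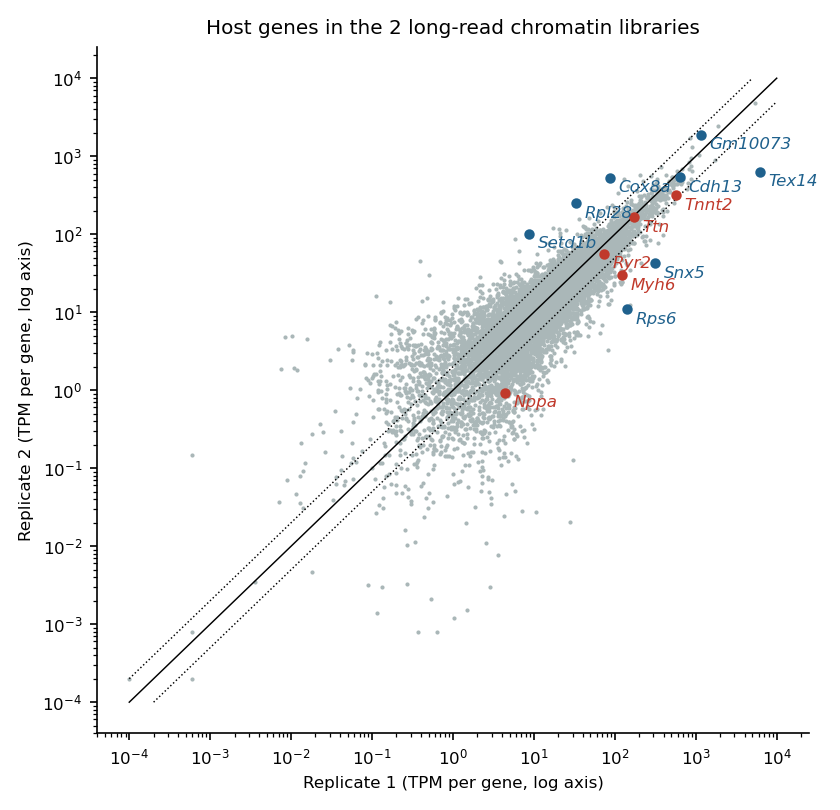
Each point is 1 of the 11690 host genes, by TPM in long-read replicate 1 (x axis) and replicate 2 (y axis), both on log scales, with a solid line at equal values and dotted lines at 2 fold. Cardiac marker genes are red and other named genes blue. Of all points, 74.5% lie between the dotted lines, and Tex14, Snx5 and Rps6 lie below them while Setd1b, Rpl28 and Cox8a lie above.

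Strand was not kept in the deposited long-read assembly, so transcripts on the opposite strand of the host genes were summed in the same way. They held 209649 TPM in replicate 1 and 206608 TPM in replicate 2, beside 364748 and 333730 TPM on the genes' own strand. Of the 11690 host genes, 8399 (71.8%) had opposite-strand TPM, and in 2047 it exceeded the gene's own. Myl7, the atrial myosin light chain gene, had 185 and 121 TPM on its own strand and 1295 and 749 TPM on the other. Rplp1 and Fgfr2 (1297 and 2641 TPM on the opposite strand) were further cases. Antisense RNA and RNA of the gene that was assigned the wrong strand cannot be told apart in these sums.

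The ends of transcripts were compared with the bases around them wherever those bases lay in annotated exons, since no mm10 genome sequence was used here. Of assembled transcripts 9.40% could be read past the 3′ end. There, 1.64% of 3174 (95% Wilson interval 1.25 to 2.14) were followed by an A-rich stretch, defined as at least 12 A in 20 bases or a run of 6 A, against 3.33% (2.85 to 3.89) of 4564 reference transcripts. The polyadenylation hexamer AATAAA or its variant ATTAAA stood in the last 40 bases of 70.9% (70.1 to 71.7) of 12335 reference transcripts. It stood there in 46.5% (44.7 to 48.3) of 2923 assembled transcripts that touch a host exon, and in 8.47% (6.20 to 11.5) of 437 without such contact. The last 40 bases could be read in 64.5%, 45.5% and 1.60% of these groups, so the 437 are a small part of the transcripts without contact. In the first 40 bases the same hexamers stood in 0.698%, 2.02% and 3.48% of these groups. Their reverse complements TTTATT and TTTAAT stood there in 0.950%, 3.31% and 10.4%. A T-rich stretch, defined alike, stood in the 20 bases before the 5′ end of 1.79% of 5092 assembled and 0.612% of 12585 reference transcripts. Only exonic ends entered, transcripts of a gene share ends, and the intervals cover counting error alone.

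The cell type label was checked against marker genes. Of 12 cardiomyocyte markers 11 were host genes. Tnnt2 had 564 and 316 TPM, Ttn, the giant sarcomere spring, 174 and 165 TPM, Tnni3 (cardiac troponin I) 128 and 72.4 TPM, Myh6 (alpha myosin heavy chain) 124 and 29.8 TPM, and Ryr2, the sarcoplasmic reticulum calcium release channel, 73.7 and 56.2 TPM. Nppa, the atrial natriuretic peptide gene, was at 4.41 and 0.932 TPM, far below the sarcomere genes. Actc1 was not a host gene because its transcripts, with 78.0 and 39.1 TPM, extend past the gene model. The other cardiomyocyte markers Actn2, Mybpc3, Gata4, Nkx2-5 and Tbx5 lay between 9.66 and 70.1 TPM in either library. All 11 were lower in replicate 2.

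Of 8 atrial markers 6 were host genes, with Myl7 at 185 and 121 TPM and Kcnj3, a subunit of the muscarinic potassium channel, at 83.5 and 61.0 TPM, whereas Sln was seen in replicate 1 only and Bmp10 was at 0. Of 6 ventricular markers, Myh7 (4.55 and 2.48 TPM) and Lbh (59.3 and 57.2 TPM) were host genes, and Myl2, Myl3, Irx4 and Hey2 were at 0 in both libraries. Markers of other cell types were mostly at or near 0. Of 9 fibroblast markers 2 were host genes, Col1a1 at 391 and 98.3 TPM and Col3a1 at 117 and 59.1 TPM, while Pdgfra, Lum, Tcf21, Postn and Thy1 were at 0. Of 5 smooth muscle markers 3 were host genes, led by Acta2 at 276 and 85.3 TPM. Host genes were 4 of 8 endothelial, 1 of 7 leukocyte, 3 of 7 neuron and Schwann cell and 2 of 4 epicardial markers. Their summed TPM in replicates 1 and 2 was 22.1 and 17.1, 1.15 and 2.85, 23.8 and 45.9, and 9.35 and 6.55. The part of other cell types in the levels of collagen and actin genes was not tested.

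Within the heart's own gene groups the form of the RNA differed from gene to gene. Of 34 sarcomere and Z-disc genes 28 were host genes, with a median of 26.3 TPM and a median assembled share of 27.7%. Tpm1 (tropomyosin) had 343 and 232 TPM and Ankrd1, a stretch-responsive titin partner, 243 and 72.3 TPM. Myh6, Des and Flnc had no assembled TPM, and Ttn had 32.7% in 31 transcripts. Of these 28 genes 25 were lower in replicate 2, with a median log2 ratio of −0.96, against −0.11 over all host genes.

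Of 25 calcium-handling genes 22 were host genes, with a median of 45.8 TPM and a median assembled share of 67.3%. Atp2a2, the sarcoplasmic reticulum calcium pump, had 338 and 189 TPM with 33.3% assembled, and Calm2 (calmodulin) had 276 and 185 TPM with none. Assembled shares of channel genes ran from 0% in Cacnb2 and Cacna1h to 93.5% in Cacna1d. Cacna2d1, an auxiliary subunit of the calcium channel, had 251 and 293 TPM in 47 transcripts with 83.8% assembled. Itpr1, the inositol trisphosphate receptor, had 148 and 147 TPM in 41 transcripts with 85.7% assembled, and Ryr2 was at 87.1%. Pln, the inhibitor of the calcium pump, was not a host gene, as its transcripts with 48.7 and 42.1 TPM reach past the gene.

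Of 19 ion channel and pump genes 13 were host genes, with a median of 27.0 TPM and a median assembled share of 50.3%. Atp1b1, a subunit of the sodium pump, had 70.7 and 64.1 TPM with 10.0% assembled, and the potassium channel gene Kcnj3 had 96.3% assembled. Of 16 intercalated disc genes 15 were host genes. They ran from Pkp2 (37.3 and 55.0 TPM) and Dsg2 (23.3 and 13.1 TPM), both without assembled TPM, to Ank3 (270 and 219 TPM, 93.0% assembled) and Ctnna3 (99.3% assembled). Unlike the sarcomere genes, these had a median log2 ratio of 0.005 between the libraries.

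Of 24 cardiac transcription factor genes 17 were host genes. Zfpm2, a cofactor of Gata4, had 165 and 134 TPM with 96.4% assembled, Mef2a had 147 and 142 TPM with 66.2%, and Tbx20 had 73.5 and 57.4 TPM with 53.7%. Gata4 had 31.3 and 16.2 TPM with none. Hand1, Isl1, Irx3 and Irx4 were at 0, and Hand2 and Srf had transcripts only partly inside the gene. All 7 genes of the natriuretic peptides and their processing were host genes, led by the amidating enzyme gene Pam with 177 and 96.7 TPM, and all 7 were lower in replicate 2.

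Of 35 splicing regulator genes 33 were host genes, with a median of 52.2 TPM and 57.7% assembled. Hnrnph1 had 267 and 183 TPM, Hnrnpa1 180 and 131 TPM and Srsf2 186 and 103 TPM. Rbm20, which controls titin splicing, had 81.4 and 61.0 TPM. Of 18 glycolysis genes 17 were host genes, led by Eno1 (394 and 212 TPM), with a median assembled share of 5.55%. Of 25 immediate early genes 19 were host genes at a median of 5.38 TPM, with Junb at 25.9 and 7.90 TPM and Fos at 12.8 and 1.70 TPM.

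The highest of these groups was that of the cytosolic ribosomal proteins, with 46 of 51 genes, a median of 225 TPM and sums of 13157 and 12691 TPM. Its genes used both forms. Rpl8 (512 and 543 TPM) and Rpl35 (378 and 384 TPM) had no assembled TPM, whereas Rps23 (518 and 452 TPM) had nothing else. The nuclear-encoded respiratory chain had 37 of 40 genes with a median of 74.3 TPM, led by Cox4i1 (342 and 375 TPM), Cox8a and Ndufa4 (336 and 279 TPM). Of 67 replication-dependent histone genes, whose messages end without a poly(A) tail in the cell, 39 were host genes with a median of 27.4 TPM and a median assembled share of 0%. Hist1h1e, a linker histone gene, had 71.6 and 117 TPM, and Hist2h3c2 had 121 and 24.2 TPM.

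The short-read libraries were used to ask in which nuclear fraction the host genes' RNA was higher, a measure the long-read rule did not use. Of the 11690 host genes, 10247 had an entry of the short-read table inside the gene and 10170 were above 0 and tested. The deposited normalized counts were put on the log2(count + 1) scale and tested by limma between 3 chromatin and 3 nucleoplasm libraries, with Benjamini-Hochberg adjustment over all 29521 features and a call at an adjusted p under 0.05. Of the host genes 2774 (27.3%) were higher and 4422 (43.5%) lower in chromatin. Over all features 29.5% were higher and 25.6% lower, and of the other 4875 protein-coding genes 16.6% were higher and 13.8% lower. The median chromatin level was 1370 normalized counts for host genes and 7.60 for these other genes. Their shares of calls therefore compare genes of unlike level. Past 4 fold, 663 host genes (6.52%) were higher and 596 (5.86%) lower, against 14.8% and 5.61% of all features. The median difference was −0.29 over host genes and 0.33 over all features.

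The balance of directions depended on the scaling of the libraries. The normalized counts of the ERCC standards summed to 183950 to 213760 in chromatin and 261886 to 392823 in nucleoplasm. With every library scaled to the same ERCC total, 4155 host genes were higher and 1558 lower, so 72.7% of called host genes were higher in place of 38.5%, and under quantile normalization 44.1% were. The median over all features then moved from 0.33 to 0.80, and that over host genes from −0.29 to 0.44. Directions below are therefore given with the values under equal ERCC totals where these turn them.

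The fraction difference followed gene span, as the share of assembled TPM had done. Of 1900 host genes of up to 10 kb, 8.42% were higher and 72.6% lower in chromatin, with a median difference of −1.20. Of 3289 between 30 and 100 kb, 32.3% were higher and 32.4% lower, and of 140 over 500 kb, 65.0% were higher and 7.86% lower, with a median of 1.34. Under equal ERCC totals the medians were −0.47, 0.70 and 1.94, so the middle class turned from −0.03 to a positive median while the order was kept. The class over 10 and up to 30 kb turned too, from a median of −0.53 to 0.19. Its 665 higher and 1717 lower genes became 1070 and 570. Genes with no assembled TPM were higher in 17.9% and lower in 53.8% of 3650 cases, and genes with over 75% and under 100% were higher in 42.7% and lower in 22.5% of 1997. The 520 genes with 100% did not follow this order, at 20.2% higher and 43.8% lower. Within span classes the genes with under 25% and over 75% assembled TPM were set side by side, on the deposited scaling and not under equal ERCC totals. Over 10 and up to 30 kb, 17.4% against 29.0% were higher and 57.5% against 37.1% lower. Over 30 and up to 100 kb, 27.5% against 37.9% were higher and 36.2% against 22.3% lower. Over 100 and up to 300 kb, the shares were 49.7% against 47.0% higher and 19.4% against 15.6% lower.

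Genes of ribosomal proteins, the respiratory chain and histones were lower in chromatin almost without exception. Of the ribosomal protein genes tested, 31 of 32 were lower and none higher, of the respiratory chain genes 35 of 36 were lower, and of the histone genes 36 of 36. Their medians were −2.26, −2.12 and −2.48, and under equal ERCC totals −1.53, −1.38 and −1.75 with 30, 30 and 36 lower. In the order of replicates 1 to 3, Rps29 had 1353, 1522 and 1255 normalized counts on chromatin, and in nucleoplasm it had 8466, 9265 and 8654. Its groups did not overlap, and the difference was −2.68 ± 0.10 (SE, adjusted p = 1.65e-05). Gm10073 had 372, 451 and 499 counts in chromatin and 2989, 3044 and 3517 in nucleoplasm, a difference of −2.86 ± 0.14 (adjusted p = 2.21e-05). The mitochondrial gene mt-Co1 had 18144, 23198 and 39760 counts in chromatin and 296341, 287287 and 200327 in nucleoplasm, and differed by −3.33 ± 0.32 (adjusted p = 0.000213). These genes were thus among the leading host genes of chromatin RNA by long reads and lower in chromatin than in nucleoplasm by short reads. Of 12 glycolysis genes 10 were lower and 1 higher, with a median of −1.43.

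Very long genes, calcium-handling genes, splicing regulators and cardiac transcription factors had positive medians under size factors, equal ERCC totals and quantile normalization. Of 140 very long genes 91 were higher and 11 lower. Cdh13 had 239186, 221402 and 163779 normalized counts in chromatin and 12245, 10196 and 10698 in nucleoplasm, with no overlap and a difference of 4.22 ± 0.17 (adjusted p = 1.75e-05). Dmd differed by 2.82 ± 0.17 (adjusted p = 3.68e-05) and Ctnna3 by 3.91 ± 0.36 (adjusted p = 0.000171). Of 19 calcium-handling genes 10 were higher and 5 lower, with a median of 0.83, and 12 of 19 splicing regulators were higher and 3 lower, with a median of 0.89. Ryr2 differed by 2.83 ± 0.31 (adjusted p = 0.000387) and Hnrnph1 by 0.60 ± 0.13 (adjusted p = 0.00652). Of 12 cardiac transcription factor genes 6 were higher and 2 lower, with a median of 0.75, and with the replicate block 5 were lower. Meis2 differed by 3.43 ± 0.17 (adjusted p = 2.33e-05) and Zfpm2 by 2.88 ± 0.19 (adjusted p = 5.47e-05).

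Sarcomere and Z-disc genes were divided, with 5 of 22 higher and 6 lower and a median of −0.01, which became 9 higher, 5 lower and a median of 0.72 under equal ERCC totals. Ttn had 2359210, 2218580 and 1094140 normalized counts in chromatin and 318157, 291354 and 199751 in nucleoplasm, a difference of 2.76 ± 0.39 (adjusted p = 0.00116). Actn2 differed by 2.92 ± 0.40 (adjusted p = 0.00102). The smaller genes Tnni3 (−1.90 ± 0.52, adjusted p = 0.0198) and Myl7 (−2.10 ± 0.39, adjusted p = 0.00376) were lower in chromatin. Replicate 3 of both fractions had lower counts of Ttn, Tnni3, Myl7, Mybpc3 and Nkx2-5 than replicates 1 and 2, and higher counts of Col3a1. With the replicate number as a block, Mybpc3 (−0.73, adjusted p = 0.362) passed at an adjusted p of 0.000539, Nkx2-5 (−1.29, 0.0757) at 0.000158, Myl4 (−0.72, 0.437) at 0.000929 and Nppa (−1.53, 0.157) at 0.0164. Under equal ERCC totals, without the block, the differences of Mybpc3 and Myl4 were 0.003 and 0.01. With the replicate block 10 of the 22 sarcomere genes were higher and 10 lower. With no block, leaving out chromatin replicate 3 gave 5 and 5, and leaving out nucleoplasm replicate 3 gave 3 and 8.

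The remaining groups had medians near 0 or below it. Beside each median stands its value under equal ERCC totals. Of 12 intercalated disc genes 4 were higher and 5 lower (median −0.04, and 0.70). Of 12 ion channel and pump genes 3 were higher and 2 lower (median −0.12, and 0.61). Of 17 immediate early genes 2 were higher and 5 lower (median −0.25, and 0.48), and of 7 genes of the natriuretic peptides and their processing 1 was higher and 2 lower (median −0.79, and −0.06). With the replicate block the ion channel and pump genes had 4 higher and 5 lower, the immediate early genes 4 and 9, and the natriuretic group 3 and 3. Kcnj3 (3.36 ± 0.38, adjusted p = 0.00041) and Corin, the enzyme that activates the atrial peptide (1.16 ± 0.32, adjusted p = 0.0207), were higher in chromatin. Of the marker genes of other cell types, Col1a1 (−1.19 ± 0.23, adjusted p = 0.00475), Acta2 (−1.43 ± 0.24, adjusted p = 0.00245), Egfl7 (−1.88 ± 0.20, adjusted p = 0.000325) and Syn1 (−1.16 ± 0.35, adjusted p = 0.0282) were lower in chromatin. Under equal ERCC totals Egfl7 kept its call (−1.15, adjusted p = 0.0182). Col1a1 (−0.46, 0.372), Acta2 (−0.70, 0.0513) and Syn1 (−0.45, 0.442) then kept the sign but did not pass.

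**Figure D5:**
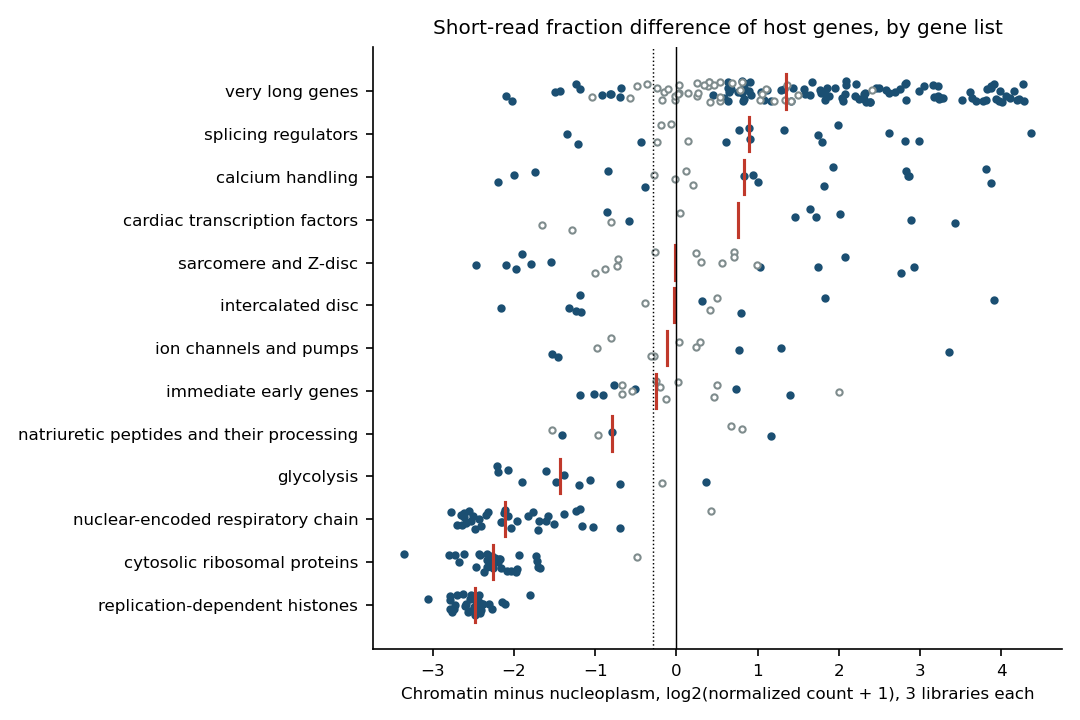
Difference between chromatin and nucleoplasm in short reads (x axis, log2 of normalized count + 1, 3 libraries each) for the tested host genes of each gene list. Filled points passed an adjusted p of 0.05 in limma, open points did not, red bars are list medians, the solid line is 0, and the dotted line is the median of all host genes, −0.29. Histone, ribosomal protein and respiratory chain genes lie to the left with medians from −2.48 to −2.12, and very long genes to the right with a median of 1.34.

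The leading host genes of long reads behaved unequally in short reads. Of the 86 that were tested among the first 100, 20 were higher and 58 lower in chromatin, with a median of −1.96. Tex14 had 583662, 230668 and 901862 normalized counts in chromatin and 178605, 48512 and 85203 in nucleoplasm, a difference of 2.45 ± 0.65 (adjusted p = 0.0174). These counts were summed within the span of Tex14, which holds the U3 copies. They were not divided between U3 and the gene itself, so the difference cannot be assigned to Tex14 messages. Zc3h7a was higher by 1.61 ± 0.12 (adjusted p = 7.14e-05). Vmp1 was lower, with a difference of −1.90 ± 0.16 (adjusted p = 0.000128). Filip1l had 183825, 276150 and 402574 counts in chromatin and 14315, 1135190 and 236171 in nucleoplasm, so that the groups overlapped and the difference did not pass (0.80, adjusted p = 0.665). Asic2, at 103 and 81.6 TPM in long reads, had 0, 0 and 1.04 counts in chromatin and 2.02, 2.40 and 0.725 in nucleoplasm. These are counts near 0 in all 6 libraries.

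The largest rises in chromatin among host genes of at least 100 mean normalized counts were those of Fbxw25 (4.96 ± 1.08, adjusted p = 0.00788), Adam4 (4.65 ± 0.23, 2.25e-05), Bicc1 (4.54 ± 0.13, 1.65e-05), Maml2 (4.43 ± 0.20, 1.91e-05) and Dnah14 (4.41 ± 1.31, 0.0278). Maml2, a coactivator of Notch signaling, was also high in long reads with 89.6 and 118 TPM, 93.3% of it assembled. The RNA-binding protein gene Bicc1 had 79.3 and 46.2 TPM, whereas Fbxw25, Adam4 and Dnah14 were below 5 TPM in both libraries. Fbxw25 and Dnah14 had 0 counts in nucleoplasm replicate 2. Without that library their differences were 3.63 and 2.78, and those of Adam4, Bicc1 and Maml2 were 4.53, 4.45 and 4.23. Among the 5 largest falls were those of Lamtor5 (−4.98 ± 0.14, adjusted p = 1.65e-05), Cmss1 (−4.93 ± 1.30, 0.0174), Camk1d (−4.57 ± 1.35, 0.0269) and Nol7 (−4.42 ± 0.14, 1.65e-05). For Lamtor5, of the lysosomal signaling complex, and Nol7, a nucleolar protein gene, the libraries of a fraction lay close together. Camk1d had 433500, 19918 and 45636 counts in the nucleoplasm libraries and 1013, 12259 and 2354 in chromatin, and Cmss1 also ranged over 10 fold or more between nucleoplasm libraries. Leaving out single chromatin libraries (replicate 1 or 3) ended the calls of Cmss1 and Camk1d, with adjusted p from 0.0646 to 0.108. Leaving out nucleoplasm replicate 1 or 3 also ended that of Camk1d (0.0523 and 0.0501), as did the replicate block (0.0504).

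The levels of the host genes in both kinds of read were compared across 10150 genes, as a description over genes that share libraries and differ in length and base composition. Spearman's rho between long-read TPM and mean chromatin counts per kb of gene span was 0.454, and 0.458 and 0.430 with replicates 1 and 2 alone. Per kb of merged exons it was 0.665. With long-read TPM limited to transcripts that touch an exon it was 0.669 per kb of span, over 9967 genes. Per kb of span, the 2538 genes with the lowest chromatin level had a median of 5.44 TPM and 62.7% assembled, and the 2538 with the highest had 29.6 TPM and 20.1% assembled.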

How the data were processed

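Per the labels and the study's methods, the authors aligned long reads to mm10 with minimap2, assembled them without strand with StringTie, merged the assemblies and deposited TPM per transcript and library. The deposited short-read values are gene counts from HISAT2 2.1.0, StringTie and prepDE after division by DESeq2 size factors, a normalized read signal and not raw counts. Every short-read value was a whole multiple of the value of 1 read (100% within 0.01 reads in each of 6 libraries), and these recovered reads were used for alternatives only. Samples were grouped by title, since a label field calls the nucleoplasm libraries chromatin, and no column was left unmapped.

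Transcripts and short-read entries were assigned to GENCODE M21 protein-coding genes on the same strand with at least 0.9 of their span inside the gene, and an entry in no such gene stayed a feature of its own. Rows of ERCC standards were left out of the sums. Fractions were compared with limma 3.58.1 (R 4.3.3, mean-variance trend, pseudocount 1, features above 0 in at least 1 library). Alternatives used edgeR 4.0.16 (quasi-likelihood test, TMM), DESeq2 1.42.0, other scalings, filters, overlap rules and the replicate number as a block, and left out each library in turn. Fold changes are on the log2(value + 1) scale, which understates those of low genes. On simulated reads with 28998 features, 89% of 100 genes changed by 1.5 and 100% of 100 changed by 3 on the log2 scale were recovered, with 9 false calls. The changes were made in features of at least 100 mean reads, equally up and down, in independent libraries. The simulation therefore says nothing on the effects of scaling or of shared replicate differences. The replicate numbers of the titles were taken as pairs of the fractions. Deviations of same-numbered libraries correlated at 0.270, 0.208 and 0.550 over 20706 features. Crossed libraries of replicates 1 and 2 correlated at 0.240 and 0.221, and crosses with replicate 3 at −0.308 to −0.401. Replicate 3 thus stood apart in both fractions, whereas these values do not pair replicates 1 and 2 by number.

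Genes were named by a rule: the 25 highest host genes, the marker genes, up to 4 leading members of each list, the 5 highest and 5 lowest by assembled share and by library ratio among those of at least 50 TPM, and the 5 largest rises and falls with at least 100 mean normalized counts that kept their direction in all 3 same-numbered pairs. Every other gene, among them further members of lists, Rps18, Calr, Asic2, the pseudogenes and their hosts, was named after its values were seen. The members, lists and rules were chosen with earlier results of these data known. The printed sequences were read from GENCODE M21 transcripts (GRCm38), whose bases equalled those of the RefSeq promoter table at 3304348 of 3304348 shared bases. Copies were matched with blastn 2.17.0. Tables were handled with pandas 2.3.3 in Python 3.11.15. Some genes that the rule names are not reported here.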

Additional observations from a re-analysis of the deposited data

How the results depend on the processing

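The number of host genes stayed within 1.5 times of 11690 under the 7 alternatives tried. The assembled share of all host-gene TPM (49.7% over both libraries) was 59.2% with transcripts wholly inside the gene, 56.3% with any overlap and 60.9% with only NM accessions as reference. The median share of a host gene (32.3%) was 72.01% with transcripts wholly inside the gene and 37.3% with any overlap. The median level (14.5 TPM) was 11.9 with strict containment, 15.9 with transcripts of at least 1 TPM, 9.98 with exon-touching transcripts, and 12.3 to 13.2 when either library was left out. The share of genes with opposite-strand TPM (71.8%) was 67.6 to 69.2% in a single library. Spearman's rho with short reads (0.454) was 0.628 without division by length, 0.665 per kb of exon and 0.669 with exon-touching transcripts. With at least 15 of 20 A required, 0.0315% of assembled ends were A-rich in place of 1.64%. For the fractions, 2774 host genes higher and 4422 lower became 4155 and 1558 under equal ERCC totals, and 1273 and 2143 with short-read entries wholly inside the gene, which left 4864 genes tested. With the replicate block 3224 were higher and 5092 lower, and beside the single genes given in the report it also passed Pam, Col3a1, Kdr, Tbx18, Junb, Npr3 and Smtn among those named. edgeR called 2746 and 4287, DESeq2 3004 and 4270, and leaving out 1 library gave 2479 to 2858 and 3943 to 4361. Of the 72 named genes that were called, Ier5 and Hnrnpa1 changed sign under equal ERCC totals. Others kept the sign but lost the call there, among them Col1a1, Acta2 and Syn1. For the 5 largest rises and 5 largest falls, 121 of the alternative results kept their direction and side of the threshold and 19 kept the direction only. Dnah14 missed the threshold with a pseudocount of 0.1 (adjusted p = 0.0804), without a filter (0.108) and without any one chromatin library (0.073 to 0.0935). Long-read values rest on 2 libraries and TPM without read counts, and near-identical copies, strand and overlapping genes limit what a single gene's sum means.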
